A study of Mus musculus with 6 samples.

Results

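The 10 genes described here encode the light response of cone photoreceptors in the mouse: the opsins Opn1sw and Opn1mw, the arrestin Arr3, the transducin subunits Gnat2, Gnb3 and Gngt2, the phosphodiesterase subunits Pde6c and Pde6h, and the channel subunits Cnga3 and Cngb3. They were taken by symbol from a table of 24062 genes, and all 10 were among the 16904 genes that passed the filter on low counts. RNA-seq counts of P21 (postnatal day 21) retinae were compared between 3 mice of the Rb1/p107/Hells TKO genotype (TKO1 to TKO3, by replicate number) and 3 of the Rb1/p107 DKO genotype (DKO1 to DKO3), which asks what the added loss of Hells, a chromatin remodeler gene, does in retinae without Rb1 and p107. All mice were labelled C57BL/6, which the study's methods give as C57BL/6N, and carried Chx10-Cre, floxed Rb1 and a germline deletion of p107, and the TKO also carried floxed Hells. Chx10-Cre acts in retinal progenitors in a mosaic pattern, so each retina keeps some cells with intact floxed alleles. Each library was a whole retina, and wild-type retinae were not analysed here.

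Cones serve daylight and color vision and are a small minority of photoreceptors in the mouse retina, which is dominated by rods. In both cell types light activates an opsin, the opsin activates a transducin, and the transducin relieves the inhibition of a phosphodiesterase that breaks down cGMP. The cGMP-gated channel then closes, and an arrestin shuts the opsin off. Most steps use a cone gene and a separate rod gene, so that most cone genes can be set against a rod gene of the same role. Gnb3 is an exception among the cone genes, since ON bipolar cells also use it. In whole retina, fewer cones and less RNA per cone cannot be told apart.

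Promoters of genes at the start of the pathway are given as a description, and no link between them and the counts was tested. RefSeq promoter sequences (GRCm38.p6) were found for 6 of the 10 genes (Opn1sw, Opn1mw, Arr3, Gnat2, Pde6h and Cnga3). The 250 bases before the start of 4 of them are printed 5′ to 3′ on the strand of the gene, with matches on either strand to AGGTCA (a nuclear receptor element), TAATCC (the core that CRX and OTX2 read) or TAATCT (a variant of that core, searched after the promoters had been read) in capitals. The regions are chr6:29380514-29380763 on the minus strand for Opn1sw, chrX:74127216-74127465 on the plus strand for Opn1mw, chrX:100605247-100605496 on the plus strand for Arr3 and chr3:108092816-108093065 on the plus strand for Gnat2.
Opn1sw: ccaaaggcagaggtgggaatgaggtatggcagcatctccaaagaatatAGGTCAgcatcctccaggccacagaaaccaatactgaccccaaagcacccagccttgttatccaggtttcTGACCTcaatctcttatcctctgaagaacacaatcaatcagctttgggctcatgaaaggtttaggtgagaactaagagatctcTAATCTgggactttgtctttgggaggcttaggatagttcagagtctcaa
Opn1mw: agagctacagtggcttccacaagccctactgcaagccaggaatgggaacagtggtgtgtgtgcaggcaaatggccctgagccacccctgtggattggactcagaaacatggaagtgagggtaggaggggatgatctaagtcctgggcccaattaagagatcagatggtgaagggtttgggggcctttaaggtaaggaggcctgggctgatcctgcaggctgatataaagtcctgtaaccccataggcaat
Arr3: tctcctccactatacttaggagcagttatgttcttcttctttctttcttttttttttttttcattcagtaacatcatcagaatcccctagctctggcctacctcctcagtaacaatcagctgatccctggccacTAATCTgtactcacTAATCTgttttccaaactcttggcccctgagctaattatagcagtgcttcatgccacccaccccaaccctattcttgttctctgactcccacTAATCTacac
Gnat2: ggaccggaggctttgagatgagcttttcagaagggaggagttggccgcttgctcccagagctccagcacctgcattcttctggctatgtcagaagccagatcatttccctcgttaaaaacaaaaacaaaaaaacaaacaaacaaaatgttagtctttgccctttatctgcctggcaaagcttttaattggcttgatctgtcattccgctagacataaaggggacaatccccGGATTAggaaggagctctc
The Opn1sw promoter held AGGTCA 202 bases before the start, its reverse complement TGACCT 132 bases before it and TAATCT 49 bases before it. Arr3 held TAATCT at 3 places, 116, 102 and 10 bases before the start. Gnat2 held GGATTA, the reverse complement of TAATCC, 19 bases before it. None of these letters was found in the windows of Opn1mw, Pde6h or Cnga3. The starts are those of RefSeq. In the GENCODE M21 gene models, used for the gene coordinates below, Opn1sw (29388468) and Gnat2 (108092789) begin further upstream. The printed regions of these genes therefore lie inside those models. The rod genes of the same roles were searched likewise where a promoter was found. TAATCC or its reverse complement was in Sag, Gngt1, Cnga1 and Cngb1 and not in Gnb1 or Pde6b. Among the cone genes only Gnat2 held it. Over 32851 promoters of the same length (300 bases, 50 of them after the start), 16.3% held AGGTCA, 7.06% TAATCC and 8.19% TAATCT.

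The libraries held between 10343907 and 14203098 counts, so that each member was counted at least 74 times in every retina. Hells was lower in the TKO in the direction of the labels, at 60.8, 68.4 and 83.5 normalized counts against 678, 523 and 395 in the DKO, a log2 fold change of -2.91 ± 0.23 (SE, n = 3 per group, adjusted p = 0.00359 by edgeR's quasi-likelihood test). Values by retina are given in the order of the replicate numbers. Normalized counts are counts scaled to a common library size, fold changes are TKO over DKO, and adjusted p-values are Benjamini-Hochberg values over all genes tested. Over all genes tested the log2 fold change had a median of -0.01. Replicates are separate retinae, and the p-values set the genotype difference against the spread between them, estimated partly from all genes. They rest on these retinae only.

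All 10 cone genes had a higher mean in the TKO, by log2 fold changes of 0.28 to 1.28 with a median of 0.83, but the TKO retinae differed widely among themselves. Opn1sw and Arr3 passed all criteria for differential expression (adjusted p of at most 0.05, a 2-fold or larger change, and 10 or more normalized counts on average). These are 2 of 10 genes, where 1.97% of all genes tested were called higher by these criteria and 7.35% by the adjusted p alone. The other 8 had adjusted p-values from 0.0797 to 0.465 by the same edgeR test. Before adjustment, 8 of the 10 passed at a p of at most 0.05, where 15.3% of all genes tested passed in this direction. In 1 gene, Arr3, every TKO retina was above every DKO retina, where 18% of all genes tested had such a separation. TKO1 was the highest and TKO3 the lowest of the TKO retinae for all 10 genes. DKO3 was the highest DKO retina for 9 of the 10. The number of the 10 genes called was 0 without TKO1, TKO2, DKO1 or DKO2, 6 without TKO3 and 4 without DKO3.

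**Figure D1:**
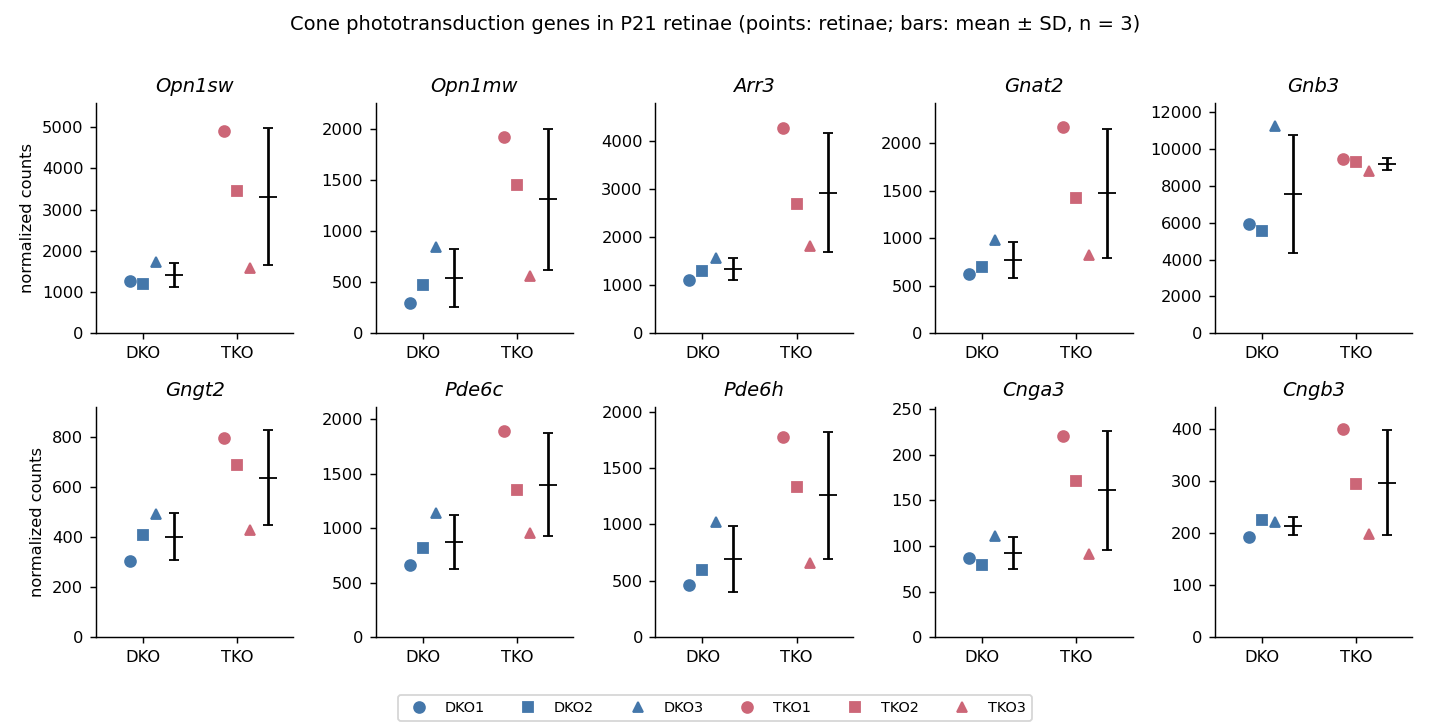
Normalized counts of the 10 cone genes in each retina, 1 panel per gene, with DKO in blue, TKO in red and retinae 1 to 3 as circle, square and triangle. Black bars are the mean ± SD of 3 retinae. TKO3 lies within the DKO range for every gene except Arr3.

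Opn1sw encodes the short-wavelength (UV-sensitive) cone opsin. Its normalized counts were 4902, 3458 and 1578 in the TKO and 1276, 1200 and 1740 in the DKO. The first pair of TKO retinae stood above all DKO retinae, whereas TKO3 was below DKO3, so the groups overlapped. The means were 3313 ± 1667 (SD, n = 3) and 1405 ± 292 (SD, n = 3), and Opn1sw rose with a log2 fold change of 1.24 ± 0.35 (SE, adjusted p = 0.0467 by edgeR's quasi-likelihood test). The call was lost when any 1 of 4 retinae was left out, since the adjusted p from edgeR was 0.133 without TKO1, 0.127 without TKO2, 0.143 without DKO1 and 0.156 without DKO2, and 0.0511 came from DESeq2 on all retinae. Without TKO3 the log2 fold change was 1.58. Opn1sw lies on chromosome 6 from 29376671 to 29388468 (GRCm38, minus strand), and 397 of its 2557 exon bases are shared with Calu on the opposite strand. Calu itself had 2443 ± 74.2 normalized counts in the TKO and 2932 ± 236 in the DKO (adjusted p = 0.0692, edgeR).

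Opn1mw encodes the medium-wavelength (green-sensitive) cone opsin and lies on chromosome X from 74127464 to 74150760 (GRCm38, plus strand). Its normalized counts were 1927, 1450 and 562 in the TKO and 297, 475 and 850 in the DKO. TKO3 was again within the DKO range. The log2 fold change of 1.28 ± 0.47 (SE, n = 3 per group) was the highest of the 10 genes and did not pass the test (adjusted p = 0.0990, edgeR). It passed without TKO3 (log2 fold change 1.65, adjusted p = 0.0172 by edgeR) and without DKO3 (1.77, adjusted p = 0.0368 by edgeR). The ratio of Opn1sw to Opn1mw per kb of exon was 1.55, 1.46 and 1.71 in the TKO and 2.63, 1.54 and 1.25 in the DKO. Opn1sw thus had the higher level per length in all 6 retinae, and the TKO ratios lay inside the range of the DKO ratios. The difference of the log2 ratio (TKO minus DKO) was -0.13 (two-sided exact permutation p = 0.9, n = 3 per group), and it was 0.18 without DKO1.

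Arr3, on chromosome X from 100605497 to 100618493, encodes cone arrestin, which quenches the activated cone opsins. Its normalized counts were 4284, 2690 and 1822 in the TKO and 1118, 1298 and 1574 in the DKO. The lowest TKO retina was above the highest DKO retina. Arr3 rose from 1330 ± 230 to 2932 ± 1249 (SD, n = 3 per group), with a log2 fold change of 1.14 ± 0.28 (SE, adjusted p = 0.0279 by edgeR's quasi-likelihood test). With single retinae left out (TKO1, TKO2, DKO1 and DKO2 in turn), the adjusted p from edgeR was 0.0519, 0.0755, 0.105 and 0.101. DESeq2 gave 0.0192 for all retinae.

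The transducin subunits carry the signal from the opsin to the phosphodiesterase. Gnat2, the cone alpha subunit, was counted at 2167, 1426 and 821 (normalized) in the TKO and 621, 702 and 984 in the DKO, a log2 fold change of 0.94 ± 0.32 (SE, adjusted p = 0.0797, edgeR). Gngt2, the cone gamma subunit, had 798, 687 and 431 in the TKO and 303, 411 and 491 in the DKO, a log2 fold change of 0.67 ± 0.24 (SE, adjusted p = 0.0934, edgeR). In both genes TKO1 and TKO2 were above all DKO retinae and TKO3 was inside the DKO range. Gnb3, the beta subunit of cones and ON bipolar cells, had 9461, 9329 and 8821 in the TKO and 5937, 5538 and 11250 in the DKO. Its TKO retinae were close to each other (9204 ± 338, SD), and DKO3 was the highest of all 6. The log2 fold change of Gnb3 was 0.28 ± 0.25 (SE, adjusted p = 0.465, edgeR), and without DKO3 it was 0.68 (adjusted p = 0.00514, edgeR). Markers of ON bipolar cells summed to 2122 to 2719 CPM (counts per 1000000) in the TKO and 1952 to 2228 in the DKO, with 2 of 11 genes higher by adjusted p, 0 lower and all detected. Their part in the Gnb3 values was not tested.

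The cone phosphodiesterase consists of the catalytic subunit Pde6c and the inhibitory subunit Pde6h. Pde6c was counted at 1893, 1354 and 952 (normalized) in the TKO and 663, 815 and 1143 in the DKO, and its log2 fold change was 0.68 ± 0.26 (SE, adjusted p = 0.113, edgeR). Pde6h had 1777, 1335 and 662 in the TKO and 466, 595 and 1020 in the DKO, and its log2 fold change was 0.86 ± 0.37 (SE, adjusted p = 0.150, edgeR). In both, TKO3 was below DKO3. Pde6c lies on chromosome 19, 747 kb from Hells, the gene with the floxed allele.

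The cGMP-gated channel of cones is built from Cnga3 and Cngb3, the least abundant of the 10 genes. Cnga3, the alpha subunit, was counted at 220, 172 and 90.8 (normalized) in the TKO and 86.6, 78.8 and 111 in the DKO (log2 fold change 0.80 ± 0.31, SE, adjusted p = 0.108, edgeR). Cngb3, the beta subunit, had 399, 294 and 198 in the TKO and 193, 224 and 221 in the DKO (0.48 ± 0.23, SE, adjusted p = 0.182, edgeR). The DKO retinae were close to each other for both genes, and only TKO1 and TKO2 stood above them.

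Per kb of exon and per 1000000 counts, the levels of the 10 genes spanned the range from Gnb3 (276 ± 10.2 in the TKO and 228 ± 95.8 in the DKO, SD, n = 3) down to Cnga3 (3.21 ± 1.31 and 1.84 ± 0.34). The TKO order was Gnb3, Opn1sw, Arr3, Opn1mw, Gnat2, Pde6c, Gngt2, Pde6h, Cngb3 and Cnga3. The DKO order differed only in that Arr3 (44.6) stood ahead of Opn1sw (43.4) and Pde6c (23.3) ahead of Gnat2 (20.3). These pairs of neighbors overlapped in both groups, and with the longest transcript as the length both differences were gone and the orders were the same (Arr3 ahead of Opn1sw and Gnat2 ahead of Pde6c in each). In the TKO the ranges of neighbors separated only between Gnb3 and Opn1sw and between Gngt2 (26.9 ± 7.94) and Pde6h (12.7 ± 5.66). In the DKO they separated between Gnb3 and Arr3 and at every step from Gngt2 down to Cnga3. The place of Pde6h below Gngt2 rests on its long annotated exons (7846 bases, or 5940 for the longest transcript). Its mean normalized counts were above those of Gngt2, at 1258 against 639 in the TKO and 694 against 402 in the DKO.

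**Figure D2:**
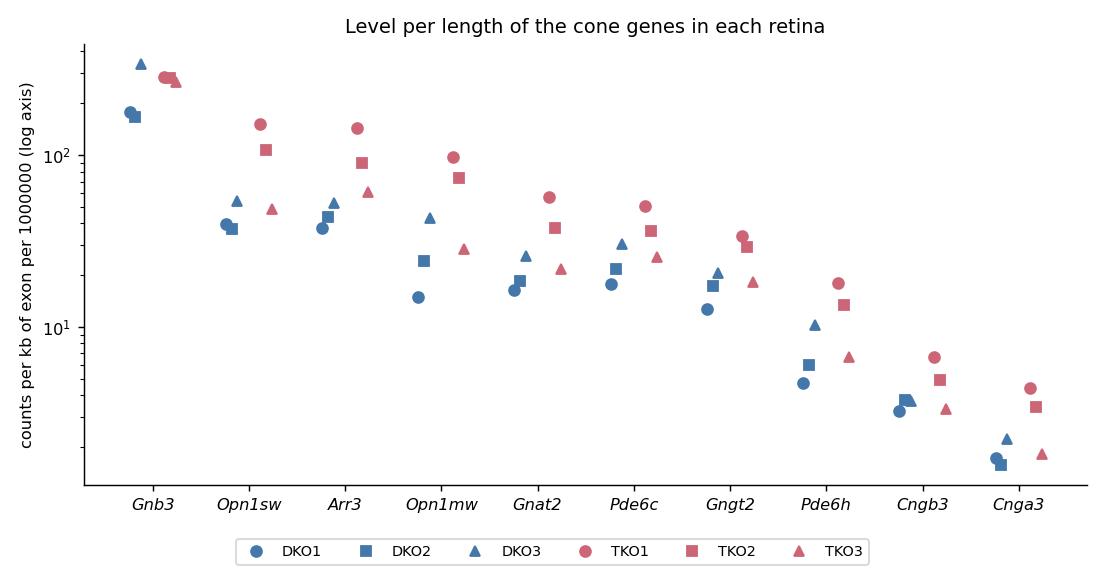
Level of each cone gene per kb of exon and per 1000000 counts on a log axis, in the order of the TKO means, with DKO in blue, TKO in red and retinae 1 to 3 as circle, square and triangle. Gnb3 is the highest gene in all 6 retinae, and the channel genes Cngb3 and Cnga3 are at the lower end.

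The 10 genes together made up 0.201%, 0.164% and 0.126% of the counts of the TKO and 0.0922%, 0.0962% and 0.158% of the DKO. Scaled for library composition, the sums were 2200, 1754 and 1260 CPM in the TKO and 866, 896 and 1532 in the DKO. DKO3 was above TKO3, so the groups overlapped. The log2 difference was 0.68, with a pooled SD of 0.43 (two-sided exact permutation p = 0.2). With 3 against 3 this test cannot give less than 0.1, so it cannot decide whether the sums differed. Without Gnb3, left out after its counts were seen, the sums were 1452, 1017 and 562.5 in the TKO and 397, 458 and 643 in the DKO, a log2 difference of 0.94 (two-sided exact permutation p = 0.2).

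The 9 members other than Gnb3 followed each other closely across the retinae, with Pearson r from 0.90 to 0.99 for log2 values over 6 retinae, while Gnb3 had r from 0.40 (with Cngb3) to 0.74 (with Pde6h). All these values come from the same 6 libraries and share their depth. Among 11671 other genes with a mean normalized count of at least 100, the ones most like the mean of the members were Sppl2b (r = 0.996), Narfl (0.995), Ppm1j (0.995), Ngly1 (0.994) and Brsk2 (0.991). For Opn1sw they were Med31 (0.996), Glp2r (0.995), Nlrx1 (0.995), Rpn2 (0.994) and Mynn (0.991), and for Opn1mw Brsk2 (0.998), Lrtm1 (0.996), Dusp4 (0.995), Narfl (0.995) and Ptpmt1 (0.994). Of these genes only Glp2r had an adjusted p under 0.05 (log2 fold change 0.96, adjusted p = 0.0482, edgeR).

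The 9 rod genes compared here, which have the roles of the cone genes downstream of the opsins, rose in the TKO, with log2 fold changes from 1.37 to 2.02 and a median of 1.69. TKO3 was the lowest TKO retina and DKO3 the highest DKO retina for all 9 of them too. Here, however, the groups did not overlap in any gene, where 18% of all genes tested had every TKO retina higher. Gnat1, the rod transducin alpha subunit, was counted at 158000, 146000 and 81440 (normalized) in the TKO and 26620, 27920 and 53070 in the DKO, and rose by a log2 fold change of 1.84 ± 0.33 (SE, n = 3 per group, adjusted p = 0.0114 by edgeR's quasi-likelihood test). Sag, the rod arrestin, rose by 1.63 ± 0.31 and Pde6b, a catalytic subunit of the rod phosphodiesterase, by 2.02 ± 0.30 (SE, adjusted p = 0.0132 and 0.00733, edgeR). The lowest value was that of Gnb1 (1.37 ± 0.25, SE), which many cell types use as a G protein beta subunit. Gngt1, Pde6a, Pde6g, Cnga1 and Cngb1 had log2 fold changes of 1.69, 1.58, 1.79, 1.78 and 1.61. All 9 rod genes were called, where 1.97% of all genes tested were called higher. The number of the 9 called was 4 without DKO1, 4 without DKO2 and 5 without TKO2. It stayed at 9 without any 1 of the other 3 retinae.

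**Figure D3:**
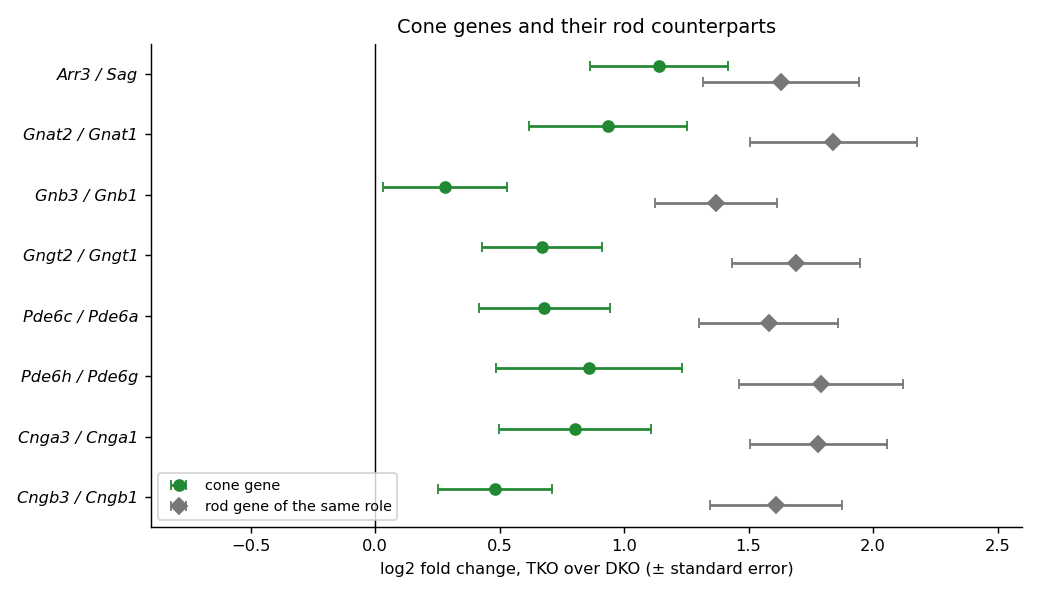
Log2 fold changes, TKO over DKO, with standard errors from edgeR (n = 3 per group), of 8 cone genes (circle) and the rod gene of the same role (diamond). Every rod value lies to the right of the cone value it is paired with, and the rod genes shown range from 1.37 to 1.84 against 0.28 to 1.14 for the cone genes.

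Within each retina, the count of the cone gene relative to its rod gene was compared for the 8 cone genes other than the opsins. It was lower in the TKO in all 8 pairs, and the groups did not overlap in any. The log2 ratio of Gnat2 to Gnat1 was -6.19, -6.68 and -6.63 in the TKO and -5.42, -5.31 and -5.75 in the DKO, a difference of -1.0 (TKO minus DKO). The ratio separated the genotypes although TKO3 had fewer Gnat2 counts than DKO3. The log2 ratio of Gngt2 to Gngt1 was -4.44, -4.41 and -4.48 in the TKO and -3.51, -3.18 and -3.54 in the DKO, a difference of -1.03. The TKO retinae, which differed widely in the level of Gngt2, were close to each other in this ratio. The smallest difference was that of Arr3 to Sag (-0.57) and the largest that of Cngb3 to Cngb1 (-1.19), with a median of -0.99. The two-sided exact permutation p was 0.1 for each of the 8 pairs, the smallest that 3 against 3 can give, and 0.1 after adjustment over the 8 pairs. All pairs share the libraries.

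A gene with an unchanged level also falls relative to genes that rose. Relative to the mean of the 9 rod genes, 91.4% of the other 16895 genes tested were lower in every TKO retina than in every DKO retina, with a median log2 difference of -1.71. By that measure 9 of the 10 cone genes separated likewise, all but Opn1mw, and the median difference of the 10 was -0.93.

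**Figure D4:**
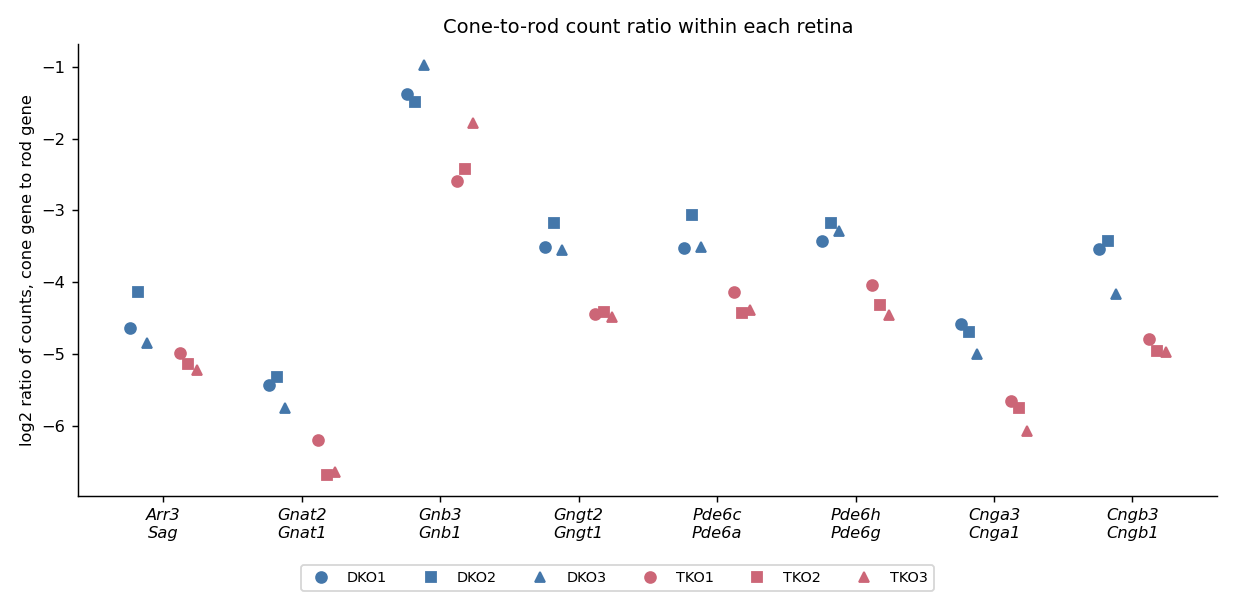
Log2 ratio of the counts of 8 cone genes to the rod gene of the same role within each retina, with DKO in blue, TKO in red and retinae 1 to 3 as circle, square and triangle. The TKO retinae lie below the DKO retinae in all 8 pairs.

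Other genes of the photoresponse, most of them used by rods as well as cones, were measured for 19 of 21 listed. By the 3 criteria above 16 rose, where 1.97% of all genes tested did, and 0 fell. The median log2 fold change of the 19 was 1.57. The most abundant were Rbp3, the retinoid carrier of the space around photoreceptors (1.57), the opsin kinase Grk1 (1.67) and the transducin-binding phosducin Pdc (2.09). The others that rose were Rgs9, Rgs9bp and Gnb5, which together speed the shutoff of transducin (1.16, 1.6 and 1.13), the guanylate cyclases Gucy2e and Gucy2f (1.54 and 1.80), their activators Guca1a and Guca1b (1.88 and 1.10), the calcium sensor Rcvrn (1.45), the potassium channel genes Kcnv2 and Kcne2 (1.76 and 1.23) and the retinoid-handling genes Abca4, Rdh8 and Rdh12 (1.73, 1.68 and 1.82). Slc24a2, an ion exchanger gene, did not pass (0.27, adjusted p = 0.0643, edgeR), and Ccdc136 (0.17) and Otop3 (0.42) did not either. The 16 calls numbered 11 without TKO1, 11 without TKO2, 9 without DKO1, 7 without DKO2 and 15 without TKO3 or DKO3. With library totals only they numbered 13, with robust dispersions 14, with the term for Y-linked counts 15 and with the replicate number as a block 0.

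Of 17 regulators of photoreceptor fate and opsin choice, 11 were higher by adjusted p, where 7.35% of all genes tested were. By all criteria 6 were higher, where 1.97% of all genes tested were, and 0 were lower in this fit. The last count was narrow, since Onecut1, a regulator of early retinal fates, had a log2 fold change of -1.24 (adjusted p = 0.0511, edgeR) and was called lower by DESeq2 (adjusted p = 0.00860), with library totals only, with each of the other low-count filters, with robust dispersions and without TKO3. Those called were the shared photoreceptor regulator Crx (log2 fold change 1.44), the rod determinants Nrl (2.08) and Nr2e3 (1.61), and Esrrb (2.21), Samd7 (1.34) and Mef2c (1.47). Rorb, Rara, Sall3 and Prdm1 did not pass (0.0349, 0.228, 0.225 and 0.676, adjusted p from 0.0689 to 0.887, edgeR). Thrb, whose product is needed for the medium-wavelength opsin, was counted at 1080, 907 and 668 (normalized) in the TKO and 586, 507 and 654.5 in the DKO, and rose by a log2 fold change of 0.60 (adjusted p = 0.0472, edgeR), under the 2-fold criterion. Rxrg, its partner in the control of opsin expression, had 145, 115 and 120 in the TKO and 113, 124 and 139 in the DKO (0.01, adjusted p = 0.969, edgeR). The groups were separate for Thrb and overlapped for Rxrg. Of 9 genes with dorsal or ventral expression in the retina, 4 were lower by adjusted p, where 9.2% of all genes tested were. These were Tbx5, Efnb2, Ephb2 and Nr2f2, from -0.95 to -0.52. By adjusted p 1 was higher (Vax2, 0.56), and 0 of the 9 passed all criteria. The most abundant of them, Aldh1a1, Ephb2 and Efnb2, had log2 fold changes of -0.50, -0.52 and -0.81. Leaving out single retinae moved the 11 higher regulators to 4 without DKO2, 7 without DKO1 and 7 without TKO2. The 4 lower dorsoventral genes moved to 0 without DKO1 or DKO2 and to 1 without TKO1 or TKO2. Vax2, the 1 higher gene (adjusted p = 0.0486, edgeR), did not pass without TKO1, TKO2, TKO3, DKO1 or DKO2, nor with library totals, upper-quartile factors or the term for Y-linked counts. The dorsoventral genes called lower by all criteria went from 0 to 1 with DESeq2 (Aldh1a3), without TKO2 or without TKO3, and to 2 with library totals or without DKO3.

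Marker genes of some other cells differed between the genotypes too. Those of amacrine, horizontal and ganglion cells had 0 genes past the adjusted p and overlapping sums. Müller glia markers had 3 of 8 genes higher and 1 lower by adjusted p, and OFF bipolar markers 1 of 4 higher. For both lists the sum was higher in every TKO retina than in every DKO retina. By adjusted p, 7.35% of all genes tested were higher and 9.2% lower. All 9 markers of dividing cells were lower in the TKO, with sums of 43.3, 79.6 and 171 CPM in the TKO and 927, 664 and 422 in the DKO. TKO3 had the highest sum of the TKO and the lowest cone and rod sums, and DKO3 had the lowest sum of the DKO and the highest cone and rod sums. Microglial markers summed to 86.8 to 155 CPM in the TKO and 201 to 289 in the DKO, with 5 of 7 lower. Lens markers summed to 49.5, 274 and 41.0 in the TKO and 8.33 to 8.58 in the DKO, with 4 of 8 higher. Markers of the retinal pigment epithelium summed to 45.1 to 206 in the TKO and 9.74 to 77.3 in the DKO. These groups overlapped, with 1 of 7 genes higher. None of these lists held a gene at 3 counts or less in all libraries, and their part in the cone values was not tested. The 9 cone and 10 rod markers were all detected in these libraries labelled as retina.

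**Figure D5:**
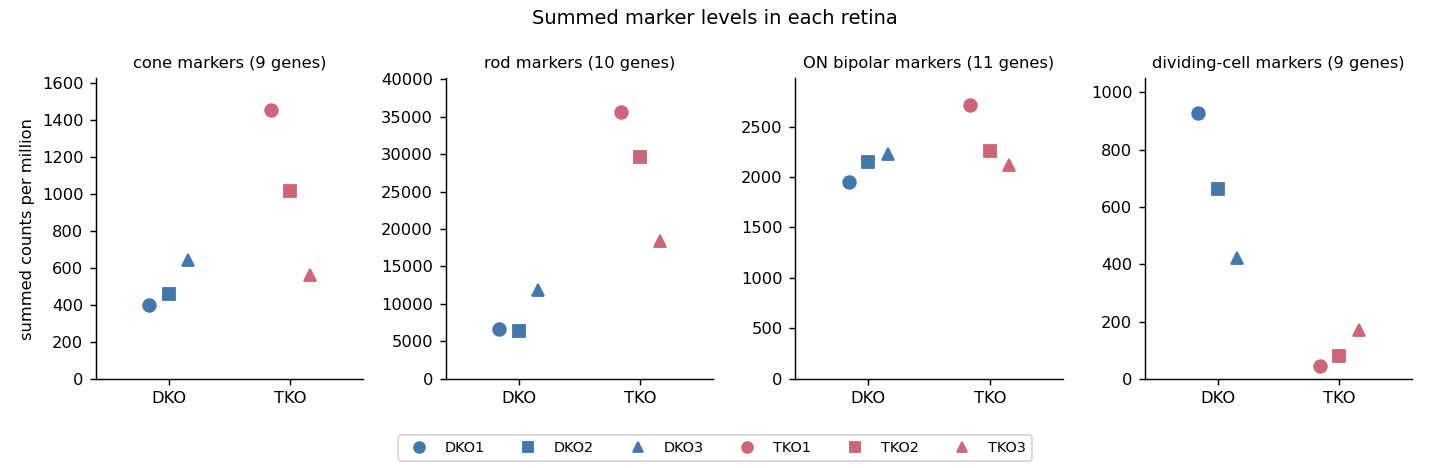
Summed CPM of marker genes in each retina for cones (the members without Gnb3), rods, ON bipolar cells and dividing cells, with DKO in blue, TKO in red and retinae 1 to 3 as circle, square and triangle. Cone sums overlap between DKO and TKO at retina 3 of each, whereas the rod and dividing-cell sums do not overlap.

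Transcripts of Y-linked genes were counted in TKO1 and in DKO1 and DKO2 (2492 to 2847 counts) and at 0 in the other 3 retinae, so that sex was unevenly spread over the genotypes. Among retinae with Y-linked counts (1 TKO, 2 DKO) the log2 difference, TKO minus DKO, lay between 0.72 (Gnb3) and 2.36 (Opn1mw) for the 10 genes, with 1.99 for Opn1sw and 1.83 for Arr3. Among those without (2 TKO, 1 DKO) it lay between -0.31 (Gnb3) and 0.49 (Arr3), with 0.43 for Opn1sw and 0.09 for Opn1mw, and it was below 0 for 3 of the 10 genes (Gnb3, Pde6h at -0.12 and Pde6c at -0.01). For the 9 rod genes the same difference lay between 1.88 (Gnb1) and 2.74 (Pde6b) where Y-linked counts were present. Where they were absent it lay between 0.82 (Gnb1) and 1.26 (Pde6b), above the range of the cone genes. With 1 retina on a side, these values have no replicate check, and each stratum rests on TKO1 or DKO3. TKO1 was the highest TKO retina for all 10 cone genes and DKO3 the highest DKO retina for 9 of them. A larger difference where Y-linked counts were present follows from that order, and the split was chosen after seeing the data. The cone genes other than Gnb3 also followed each other closely, so their values are not separate observations. The interaction fit given next shares these limits, so it cannot decide whether the genotype difference varied with sex. Its log2 interaction lay between 0.78 (Cngb3) and 2.07 (Opn1mw) for the cone genes and between 1.01 (Gnb1) and 1.57 (Sag) for the rod genes. A positive interaction was thus not particular to the cone genes. The interaction of genotype with the presence of Y-linked counts, fitted with 2 residual degrees of freedom, did not pass for any of the 10 genes after adjustment (adjusted p from 0.152 to 0.418, edgeR), and 4 of 16904 genes passed it. Before adjustment all 10 were positive with p under 0.05 (0.000525 to 0.0469, edgeR), where 4.96% of all genes tested were.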

How the data were processed

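RNA-seq was measured in 3 TKO and 3 DKO retinae, grouped by genotype in the labels. The deposited values are raw counts per gene, 1 column per retina, made by the authors. The paper names STAR and HTSeq on GRCm38, whereas the submitters' processing notes name TopHat2, featureCounts, DESeq2, mm10 and GRCm38. The library kit keeps strand, and the strand setting of the counting is not given in the sources used here, so exons shared with genes on the opposite strand are uncertain (Calu with Opn1sw, Abi3 with Gngt2, Arhgdib with Pde6h).

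Genes with a summed count under 10 were removed and 16904 were tested with edgeR 4.0.16 in R 4.3.3 (TMM factors, quasi-likelihood F test, Benjamini-Hochberg adjustment). Standard errors were derived from the log2 fold change and the square root of F. Genes were called at an adjusted p up to 0.05 with a fold change of 2 or more either way and a base mean (mean normalized count) from 10 up. The test was run first on simulated data with capped gene dispersions. That run does not show how it performs for genes with a wider spread. Ratios used counts plus 0.5 and exact two-sided permutation tests. Lengths and coordinates came from GENCODE M21 (GRCm38) and promoters from RefSeq.

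The members and lists were chosen with earlier results of these data known. Named genes were all members, their rod counterparts, called genes and the 3 most abundant of each list, the 5 genes most like the members, Opn1sw and Opn1mw, Hells, and genes over a member. Genes named outside that rule (Thrb, Rxrg, Rorb, Rara, Sall3, Prdm1, Slc24a2, Ccdc136, Otop3, Onecut1, Aldh1a3, Tbx5, Nr2f2, Vax2) were chosen after their values were seen. Marker sums (CPM) not given above were 243 to 283 in the TKO and 189 to 224 in the DKO for OFF bipolar cells, 1417 to 1703 and 1548 to 1740 for amacrine cells, 262 to 327 and 273 to 320 for horizontal cells, 1163 to 1348 and 929 to 1261 for ganglion cells, and 5904 to 6328 and 5161 to 5669 for Müller glia. DESeq2 1.42.0, other scalings, filters and thresholds, a replicate block, a Y-linked term and leaving out each retina were the alternatives. A comparison of protein sequences was planned and not run, and some planned genes and pairs are not reported here.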

Additional observations from a re-analysis of the deposited data

How the results depend on the processing

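The log2 fold change of each of the 10 cone genes stayed above 0 in every one of the 17 alternative fits, and the calls were less stable. Of the 10 genes, 2 were called in the fit described above, 1 with DESeq2 (Arr3), 1 with library totals only (Opn1sw), 1 with a term for Y-linked counts (Arr3), 0 with robust dispersion estimates and 0 at an adjusted p of at most 0.01. By the adjusted p alone the count was 2, and it was 1 with the Y-linked term, 0 with robust dispersions and 3 with DESeq2. At an unadjusted p of at most 0.05, 8 of the 10 passed in edgeR, where 15.3% of all genes tested passed with a higher mean in the TKO. Leaving out each retina in turn gave 0 to 6 called genes and 0 to 9 by adjusted p. It gave -0.36 to 0.18 for the log2 opsin ratio, whose sign turned only without DKO1 (0.178), 0.49 to 0.94 for the summed cone genes and -0.92 to -1.06 for the median cone-to-rod difference. The cause of these changes was not tested.

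With the replicate number as a block, 0 of the 10 cone genes and 0 of the 9 rod genes were called, 0 cone genes passed by adjusted p alone, and calls over all genes went from 1074 to 90. The deviations of retinae with the same number from their group means had correlations of 0.07, -0.05 and -0.20 across genes, so the numbers were not taken to pair the retinae. Library totals in place of TMM shifted the median over all genes from -0.01 to -0.17 (log2) and the calls from 333 higher and 741 lower to 247 and 983. The longest transcript in place of all exons moved the Gnb3 level in the TKO from 276 to 394. Leaving Gnb3 out of the sum or of the pairs, the TAATCT search and the values by Y-linked counts were chosen after seeing the data. With 3 retinae a group, no permutation p could go below 0.1.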
